A study of Mus musculus with 8 samples.

Results

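The TGF-beta, activin and BMP signalling genes are 51 genes, listed by name among the 55573 genes counted in each library: ligands, latent binding proteins, receptors, SMADs, antagonists and Id target genes, in 17 roles. All 51 names matched exactly 1 Ensembl identifier of GENCODE M21. The libraries came from mouse colon fibroblasts of the C57BL6/J strain, kept as a 2D culture on plastic. Every culture, controls included, grew in Advanced DMEM F12 with serum and was given APTKA-conditioned medium (the labels leave the name APTKA unexplained), so the comparison says nothing of the conditioned medium itself. The 4 irradiated libraries came from cells given 3 fractions of 2 Gy, and the 4 non-irradiated libraries from cells given none. Both groups were harvested 72 h after the first fraction. Replicates carry the numerals I to IV. Whether each numeral is an animal or a culture of its own is not stated, so a p-value here reflects the spread among libraries, which may be technical.

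TGF-beta, activins and bone morphogenetic proteins (BMPs) are secreted dimers of 1 superfamily. They bring together type I and type II receptor kinases, which phosphorylate receptor-activated SMADs (Smad2 and Smad3 for TGF-beta and activin; Smad1, Smad5 and Smad9 for BMPs). These join Smad4 and act on genes in the nucleus, among them the inhibitory SMADs, which feed back on the receptors, and the Id genes, which are classic BMP targets. In the gut, fibroblasts under the crypts secrete BMP antagonists such as gremlin 1 and so shape the BMP level that epithelial stem cells meet, and TGF-beta drives fibroblasts towards a contractile, matrix-making state.

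Library totals ran from 28731227 to 37157216 counts. Irradiated I and II stood apart: the 12S and 16S mitochondrial rRNA took 15129 and 15263 CPM (counts scaled to library size) there and 4178 to 5934 CPM in the other 6 libraries. The part of this in the results was not tested, so each called gene of the 51 is also given without these 2 libraries. Called markers, and called genes of the wider list below, are not given that way. Of 11 fibroblast markers none was under 1 CPM, and their sum ran from 16200 to 19100 CPM in non-irradiated and from 14800 to 16100 CPM in irradiated libraries; 2 of them (Col1a2 and Vim) were called lower. All 8 epithelial markers were under 1 CPM, with sums of 0.92 to 2.10 and 1.03 to 1.58 CPM. The 6 endothelial markers summed to 4.04 to 5.02 and 4.57 to 5.40 CPM, with 5 of them under 1 CPM, and the 7 immune markers to 3.06 to 4.67 and 4.09 to 4.54 CPM. The 6 smooth muscle and pericyte markers summed to 363 to 392 and 307 to 362 CPM, mostly Actg2, which was called lower. The 5 glial and neuronal markers summed to at most 5.31 CPM and the 4 mesothelial ones to at most 0.252 CPM. These are bulk libraries, in which fewer cells of a type and less RNA per cell cannot be told apart.

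Per kilobase of exon, gremlin 1 stood far above every other signalling gene. Grem1, the secreted BMP antagonist, had a mean of 746 CPM per kb over the 8 libraries (680 to 816), and the other antagonists were low: Chrd (chordin) had 0.490 CPM per kb, and Nog (noggin) had 9 counts in all 8 libraries together. Fstl1, a secreted follistatin-like glycoprotein, came second with 158 CPM per kb (151 to 161). Next were Inhbb at 59.6 (44.5 to 77.1), Smad3 at 46.8 (45.1 to 48.9) and Smad4 at 43.5 CPM per kb (41.9 to 46.3); the ranges of Inhbb and Smad3 overlapped, as did those of Smad3 and Smad4. Altogether 25 genes had mean levels from 10 to 100, 16 from 1 to 10 and 8 under 1 CPM per kb.

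Among TGF-beta ligands the order per kb was Tgfb3 (19.5), Tgfb1 (12.4) and Tgfb2 (1.85 CPM per kb), with no overlap in range between any of them. The gap between Tgfb3 and Tgfb1 rests on length, 3383 and 5042 bases. Before division by it their CPM overlapped, at 61.5 to 69.4 and 49.1 to 67.2. The length merges the exons of all annotated transcripts, so it can exceed that of the transcript present, and orders per kb depend on it. The signalling receptors Tgfbr2 (18.1) and Tgfbr1 (17.8 CPM per kb) were alike in level. The co-receptor betaglycan, Tgfbr3, stood above them at 32.3, and the other co-receptor, Eng (endoglin), was at 1.04 CPM per kb. Of the BMP ligands Bmp2 led with 11.2 CPM per kb, followed by Bmp6 (1.02) and Bmp4 (0.552). Bmp5 had 1 count and Bmp7 had 6 counts over all libraries. The type I BMP receptor Bmpr1a (30.5) was above the type II receptor Bmpr2 (11) and Bmpr1b (1.29 CPM per kb). Bmpr1a and Bmpr2 have 6351 and 17983 exon bases. Before division by length their means were 194 and 206 CPM in non-irradiated and 193 and 189 CPM in irradiated libraries. Among receptor-activated SMADs, Smad3 exceeded Smad5 (15.1), Smad1 (12.8) and Smad2 (12.6), while Smad9 was at 0.608 CPM per kb. Smad7 (21.6) was above Smad6 (1.46 CPM per kb), the other inhibitory SMAD. Within the Id genes, Id1 was at 8.97, Id3 at 6.94, Id2 at 2.74 and Id4 at 0.242 CPM per kb.

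**Figure D1:**
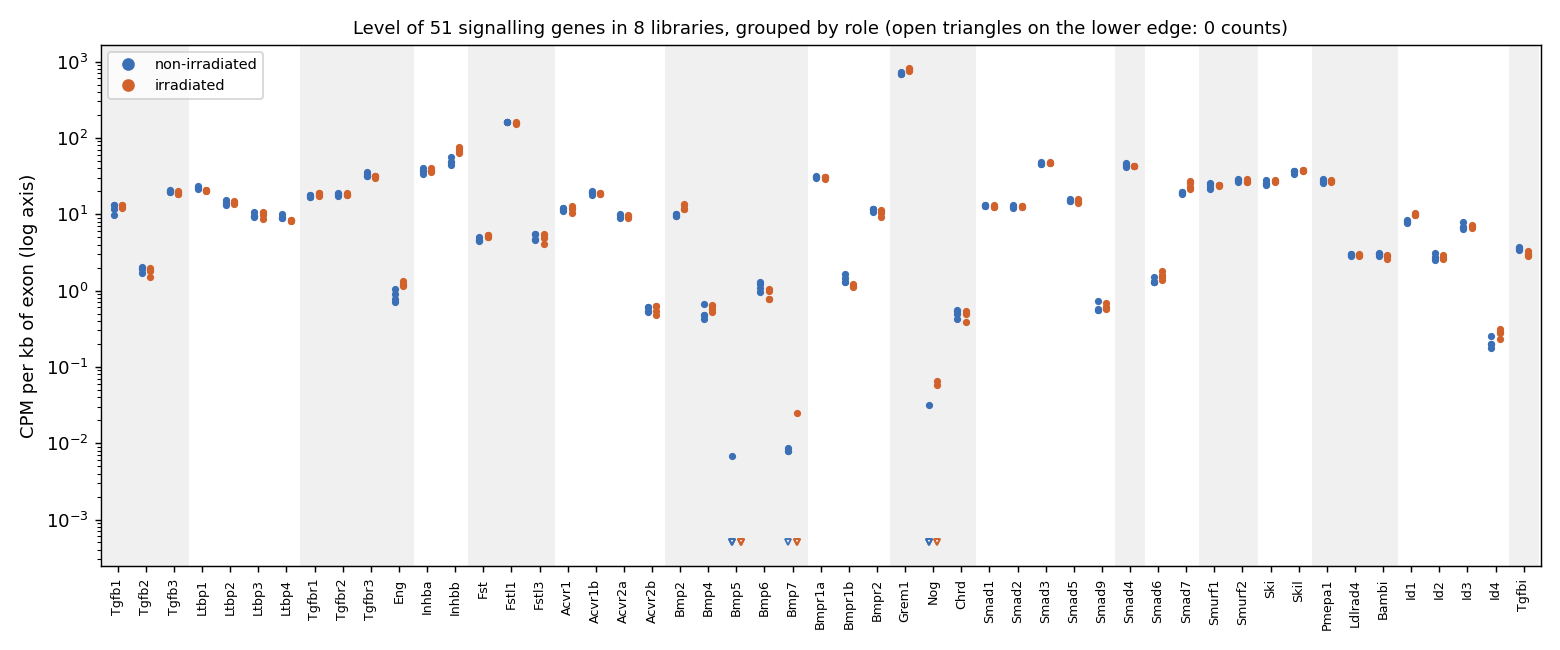
Level of each of the 51 genes in each of the 8 libraries, as CPM per kb of merged exon on a log axis, with genes grouped by role in shaded and unshaded bands; blue points are non-irradiated and orange points irradiated libraries, and open triangles at the lower edge are libraries with 0 counts. Grem1 lies between 680 and 816 CPM per kb, and Bmp5, Bmp7 and Nog have 0 counts in at least 4 of the 8 libraries.

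Irradiated and non-irradiated libraries were then compared gene by gene. Of the 51 genes, 48 passed the low-count filter and were tested, all but Bmp5, Bmp7 and Nog. At an adjusted p under 0.05 (edgeR quasi-likelihood test, Benjamini-Hochberg over all 15259 genes tested), 6 were higher in irradiated libraries and 2 were lower. The higher genes were Inhbb, Bmp2, Smad7, Id1, Grem1 and Eng, and the lower ones Ltbp1 and Tgfbi. The 8 called genes are 16.7% of those tested, where 6.74% of all tested genes were called. By direction, 12.5% were higher against 2.59% of all tested genes, and 4.17% were lower against 4.15%. The median log2 fold change of the 48 genes was 0.00 (24 positive and 24 negative), as over all tested genes. No member changed by more than 0.52 on the log2 scale. For 11 of the 48 genes (22.9%) every library of 1 group lay above every library of the other, against 14.2% of all tested genes. At an unadjusted p under 0.05 there were 14 members, against 3228 of all 15259 genes.

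Start-site sequences are shown for 3 genes that were called higher, to let their start regions be read beside their values. RefSeq promoters of GRCm38.p6, the assembly behind mm10, were at hand for 37 of the 51 genes, each with 250 bases before and 50 after the annotated start. Of the 6 higher genes these included Inhbb, Grem1 and Eng, but not Bmp2, Smad7 or Id1. Capitals mark 2 motifs searched on both strands: CAGAC (or GTCTG on the other strand), the SMAD box, and GGCGCC, a GC-rich SMAD site that reads the same on both strands. Neighbouring matches of different motifs can share at most 1 base. Both motifs are common: CAGAC is in 49.6% and GGCGCC in 11.9% of all 32851 promoters of the table. Coordinates are chr1:119422199-119422498, minus strand, for Inhbb; chr2:113758599-113758898, minus strand, for Grem1; and chr2:32646345-32646644, plus strand, for Eng. All are written 5′ to 3′ along the gene.
Inhbb: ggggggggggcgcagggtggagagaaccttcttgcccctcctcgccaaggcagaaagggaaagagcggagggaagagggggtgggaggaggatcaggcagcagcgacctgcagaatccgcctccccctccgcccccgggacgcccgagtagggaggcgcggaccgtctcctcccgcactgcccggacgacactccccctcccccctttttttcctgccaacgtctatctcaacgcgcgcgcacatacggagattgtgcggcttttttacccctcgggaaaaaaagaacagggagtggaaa
Grem1: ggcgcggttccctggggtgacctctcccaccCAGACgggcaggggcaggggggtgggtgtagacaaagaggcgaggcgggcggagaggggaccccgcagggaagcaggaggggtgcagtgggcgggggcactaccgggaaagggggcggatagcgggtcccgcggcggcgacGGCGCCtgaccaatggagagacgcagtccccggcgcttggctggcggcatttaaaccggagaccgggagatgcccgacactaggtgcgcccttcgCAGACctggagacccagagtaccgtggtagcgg
Eng: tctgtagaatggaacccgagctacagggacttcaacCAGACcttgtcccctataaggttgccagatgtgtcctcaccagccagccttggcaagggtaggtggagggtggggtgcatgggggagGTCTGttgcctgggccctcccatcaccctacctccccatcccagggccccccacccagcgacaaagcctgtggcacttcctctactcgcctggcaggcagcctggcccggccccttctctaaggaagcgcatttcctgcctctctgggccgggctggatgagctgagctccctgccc

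Grem1 held CAGAC 219 bases before its start and again 18 bases into the transcript, and GGCGCC 78 bases before the start. Eng held the SMAD box 214 bases before the start and, on the other strand, 127 bases before it. Inhbb, which had the smallest adjusted p of the 3, held neither motif in this window. CAGAC was in 20 of the 37 genes with a promoter (54.1%) and GGCGCC in 14 (37.8%), counting a match at any annotated start (5 genes had several, so these shares are not those per promoter above), and the genes called lower held them too (Ltbp1 3 matches of CAGAC over 2 starts, Tgfbi 2 of CAGAC and 1 of GGCGCC). A match here is a description of letters, and no binding was measured.

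Inhbb, the beta B subunit that forms activin B, rose 1.42-fold. It measured 203, 239, 206 and 189 CPM in non-irradiated I to IV and 289, 268, 305 and 328 CPM in irradiated I to IV. The lowest irradiated library lay above the highest non-irradiated one. The means were 209 ± 21.0 and 297 ± 25.4 CPM (SD, n = 4 each), a log2 fold change of 0.51 (SE 0.07, 95% interval 0.36 to 0.66, adjusted p = 0.000544). Without irradiated I and II the log2 fold change was 0.59 (adjusted p = 0.0012). The gene (ENSMUSG00000037035) is protein-coding and lies on the minus strand of chromosome 1 from 119415465 to 119422248 of mm10.

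Its sister subunit Inhba, which forms activin A, did not pass the test. Values were 234, 235, 217 and 260 CPM without irradiation and 232, 254, 240 and 231 CPM with it, so that the groups overlapped. The log2 fold change was 0.02 (SE 0.05, 95% interval -0.09 to 0.13, adjusted p = 0.886). Counts of Inhbb over counts of Inhba in the same library, a ratio that needs no normalisation, went from 0.891 ± 0.124 to 1.25 ± 0.151, with no overlap. Fst, the follistatin gene whose product binds and neutralises activins, was at 21.0, 22.9, 20.5 and 21.2 CPM in non-irradiated and 24.5, 22.8, 23.1 and 24.3 CPM in irradiated libraries. Its log2 fold change of 0.15 (95% interval 0.03 to 0.26) had an adjusted p = 0.123. Fstl1 (log2 fold change -0.03) and Fstl3 (-0.03) were not called either. None of the 4 activin receptor genes was called, with log2 fold changes from -0.04 (Acvr1b) to 0.01 (Acvr1). Acvr1b, a type I receptor for activin, was the most abundant of them at 84.7 ± 4.25 and 82.5 ± 1.15 CPM.

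Bmp2, the most abundant BMP ligand per kb, rose 1.28-fold. Its CPM were 34.1, 36.2, 36.3 and 33.2 in non-irradiated and 42.0, 47.8, 46.5 and 42.1 in irradiated libraries. All irradiated libraries were above all non-irradiated ones. The log2 fold change was 0.35 (SE 0.05, 95% interval 0.24 to 0.47, adjusted p = 0.00114), and 0.34 without irradiated I and II (adjusted p = 0.0127). Bmp2 (ENSMUSG00000027358) lies on the plus strand of chromosome 2 from 133552159 to 133562885. Bmp4, another BMP ligand, had 0.942, 1.49, 1.06 and 1.07 CPM and then 1.47, 1.42, 1.18 and 1.29 CPM, a log2 fold change of 0.23 whose interval ran from -0.15 to 0.61 (adjusted p = 0.501). At about 1 CPM, a change of the size seen for Bmp2 was within that interval. Bmp6 was at 4.42 ± 0.625 and 3.50 ± 0.534 CPM with overlapping groups (log2 fold change -0.34, adjusted p = 0.149); 224 of its exon bases overlap the opposite-strand gene Txndc5, and whether the counting used strand is not given.

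Grem1 rose 1.12-fold, a small change in a very abundant transcript. Non-irradiated libraries had 2820, 2960, 3060 and 2870 CPM, and irradiated ones had 3350, 3380, 3180 and 3140 CPM. The groups did not overlap, although non-irradiated III (3060) and irradiated IV (3140) were close. The log2 fold change was 0.16 (SE 0.04, 95% interval 0.07 to 0.25, adjusted p = 0.0349). The call was lost without non-irradiated I (0.0775) or IV (0.0801) or irradiated I (0.0982) or II (0.131). Without both irradiated I and II the log2 fold change was 0.11 (adjusted p = 0.312). Grem1 (ENSMUSG00000074934) lies on the minus strand of chromosome 2 from 113746164 to 113758646. Chrd, an antagonist that binds BMPs outside the cell, was at 3.13 ± 0.381 and 3.00 ± 0.427 CPM (adjusted p = 0.863).

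The BMP receptors were not called. Bmpr2, the type II receptor, had 208, 211, 192 and 213 CPM without and 189, 199, 164 and 204 CPM with irradiation (log2 fold change -0.12, adjusted p = 0.247); irradiated III was the lowest library. Bmpr1b was lower in every irradiated library than in any non-irradiated one, with 7.71, 8.77, 7.82 and 9.89 against 7.19, 6.72, 6.75 and 6.85 CPM. Its log2 fold change of -0.31 (95% interval -0.50 to -0.12) just missed the threshold (adjusted p = 0.0513). It passed without non-irradiated I (0.0425) or III (0.0386) and with DESeq2 (0.0316). Bmpr1a, the main type I receptor here, was at 194 ± 3.32 and 193 ± 4.87 CPM (a log2 fold change of -0.01, 95% interval -0.08 to 0.06, adjusted p = 0.92).

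The TGF-beta ligands did not pass the test. Tgfb1 had 67.2, 49.1, 66.0 and 59.2 CPM in non-irradiated and 60.2, 67.0, 67.0 and 63.3 CPM in irradiated libraries (log2 fold change 0.09, 95% interval -0.08 to 0.26, adjusted p = 0.562). Non-irradiated II was the lowest library and the groups overlapped. Tgfb2 was at 11.1 ± 0.903 and 10.4 ± 1.13 CPM (a log2 fold change of -0.09, adjusted p = 0.591), and Tgfb3 at 67.5 ± 2.12 and 64.8 ± 3.31 CPM (-0.06, adjusted p = 0.499). Whatever their transcript level, these ligands are stored in a latent form, which messenger RNA does not report.

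Some latent TGF-beta binding proteins, Ltbp1 among them, tether that latent form to the matrix. Ltbp1 fell by 0.13 on the log2 scale (SE 0.04, adjusted p = 0.0492), from 239, 248, 228 and 244 CPM to 220, 216, 225 and 216 CPM. The groups were separate, though non-irradiated III and irradiated III lay close. The call was lost when any of 7 libraries was left out, with adjusted p up to 0.146, and held without non-irradiated III. Without irradiated I and II the log2 fold change was -0.12 (adjusted p = 0.26). Ltbp1 (ENSMUSG00000001870) is on chromosome 17, plus strand, from 75005568 to 75392512. Ltbp4 had 65.2, 57.6, 59.0 and 57.3 against 52.4, 54.4, 54.7 and 52.0 CPM, also without overlap, and missed the threshold (log2 fold change -0.16, SE 0.05, adjusted p = 0.0529). Ltbp2 (0.02) and Ltbp3 (0.02) had log2 fold changes near 0.

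Eng, a co-receptor better known from endothelial cells, rose 1.44-fold from a low level. Libraries I to IV had 3.70, 4.20, 2.84 and 3.09 CPM without and 5.37, 4.69, 4.82 and 4.88 CPM with irradiation. No values overlapped, yet the non-irradiated libraries spread widely (3.46 ± 0.610 CPM, against 4.94 ± 0.295 CPM). The log2 fold change was 0.52 (SE 0.12, 95% interval 0.26 to 0.78, adjusted p = 0.0188). The call was lost without non-irradiated IV (0.0571), without irradiated I (0.0614), without irradiated I and II (log2 fold change 0.49, adjusted p = 0.116) or non-irradiated I and III (0.0738). Of the 6 endothelial markers, Pecam1 was at 0.746 and 0.623 CPM, Kdr at 2.96 and 3.42 CPM and Tek at 0.569 and 0.787 CPM, and these 3 were tested and not called. Cdh5, Vwf and Emcn had too few counts to be tested, with 6, 52 and 1 over all 8 libraries; their part in the Eng result was not tested. Eng (ENSMUSG00000026814) lies on the plus strand of chromosome 2 from 32646595 to 32682669, and 61 of its exon bases overlap the opposite-strand gene Fpgs.

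The signalling receptors were not called. Tgfbr1, the type I receptor, had 109, 117, 115 and 111 CPM and then 116, 125, 114 and 124 CPM (a log2 fold change of 0.08, adjusted p = 0.293), and Tgfbr2, the type II receptor, 149, 154, 144 and 140 and then 153, 147, 148 and 151 CPM (0.03, adjusted p = 0.743). Both pairs of groups overlapped. Their 95% intervals, -0.01 to 0.18 and -0.06 to 0.11, exclude a change as large as that of Inhbb. Tgfbr3 was separate between groups (235, 220, 210 and 210 against 206, 209, 194 and 206 CPM) but was not called (log2 fold change -0.10, adjusted p = 0.191).

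None of the SMADs that carry the signal passed the test. Log2 fold changes ran from -0.05 (Smad5) to 0.02 (Smad3) over the 5 receptor-activated SMADs, and Smad4, the common partner, had -0.03 (95% interval -0.11 to 0.05, adjusted p = 0.716). Smad3 measured 271, 250, 255 and 256 CPM without and 257, 261, 268 and 256 CPM with irradiation, and Smad2 measured 116, 110, 111 and 107 and then 109, 110, 113 and 113 CPM. Every value of the irradiated libraries lay within the range of the non-irradiated ones for both genes. Smad4 had 172, 162, 162 and 155 CPM, then 161, 160, 161 and 157 CPM. For Smad2, Smad3 and Smad4 the 95% intervals stayed within 0.11 of 0 on the log2 scale; for Smad9, at about 3 CPM, the interval ran from -0.26 to 0.26, so a moderate change would not have been detectable.

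Smad7, which recruits ubiquitin ligases to the TGF-beta receptor and is itself induced by SMAD signalling, rose 1.26-fold. Values were 85.6, 88.0, 88.4 and 83.3 CPM in non-irradiated I to IV against 103, 95.9, 115 and 123 CPM in irradiated I to IV. The groups did not overlap, and irradiated III and IV were higher than I and II, so the irradiated spread (11.9 CPM) exceeded the non-irradiated one (2.40 CPM). The log2 fold change was 0.34 (SE 0.07, 95% interval 0.20 to 0.48, adjusted p = 0.00648). With irradiated I and II left out it was 0.46 (adjusted p = 0.000703). Smad7 (ENSMUSG00000025880) lies on the plus strand of chromosome 18 from 75367529 to 75395935. Smad6, the inhibitory SMAD that acts mainly on the BMP branch, had 4.19, 4.20, 4.79 and 4.13 and then 4.43, 4.81, 5.78 and 5.14 CPM, with overlap and a log2 fold change of 0.22 (95% interval 0.00 to 0.44, adjusted p = 0.247).

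Other brakes on the pathway were not called. Smurf1 and Smurf2, ubiquitin ligases for SMADs and receptors, had log2 fold changes of 0.03 and -0.04. The corepressor Skil, another SMAD-induced gene, measured 352, 358, 329 and 353 and then 364, 366, 354 and 359 CPM (a log2 fold change of 0.05, adjusted p = 0.439), and Ski, its relative, had 0.08 (adjusted p = 0.328). Pmepa1, a TGF-beta-induced membrane protein that sequesters SMADs, had 143, 125, 137 and 130 and then 137, 128, 134 and 134 CPM (a log2 fold change of 0.00, 95% interval -0.10 to 0.09, adjusted p = 0.976). Bambi, a pseudoreceptor, had 15.7, 14.2, 15.1 and 15.3 and then 14.2, 13.3, 14.7 and 14.2 CPM (-0.09, adjusted p = 0.397). Ldlrad4, related to Pmepa1, was at 15.8 ± 0.493 and 15.6 ± 0.434 CPM, but 2798 of its 5371 exon bases overlap the opposite-strand gene Fam210a. Of the feedback genes that TGF-beta signalling is known to induce, Smad7 passed the test, while Skil, Pmepa1 and Bambi did not; whether Smad7 differs from these was not tested.

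Id1, an inhibitor of basic helix-loop-helix factors, rose 1.24-fold with little spread. It had 8.93, 9.63, 9.20 and 9.39 CPM in non-irradiated and 11.4, 11.6, 11.9 and 11.2 CPM in irradiated libraries. The lowest irradiated library was clear of the highest non-irradiated one. The log2 fold change was 0.31 (SE 0.06, 95% interval 0.18 to 0.45, adjusted p = 0.00794); without irradiated I and II it was 0.32, with an adjusted p = 0.0557. Id1 (ENSMUSG00000042745) lies on the plus strand of chromosome 2 from 152736251 to 152737410.

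The other Id genes were not called. Id3 had 12.1, 14.2, 12.2 and 11.6 and then 11.7, 12.4, 12.3 and 12.8 CPM (a log2 fold change of -0.03, 95% interval -0.18 to 0.13), and Id2 had 6.66, 7.53, 6.04 and 6.55 and then 7.22, 6.39, 6.61 and 6.52 CPM (0.00, interval -0.18 to 0.19). In both the groups overlapped. Id4 was near the limit of detection, with 0.767, 0.985, 0.677 and 0.756 and then 1.11, 1.06, 0.881 and 1.22 CPM (a log2 fold change of 0.42, 95% interval 0.01 to 0.83, adjusted p = 0.228).

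Tgfbi, a secreted matrix protein named for its induction by TGF-beta, fell by 0.24 on the log2 scale. It had 14.0, 13.2, 13.6 and 13.0 CPM without and 10.7, 11, 12.5 and 11.3 CPM with irradiation. The groups were separate, with irradiated III nearest to the non-irradiated range. The adjusted p of 0.0452 (SE 0.07) was just under the threshold, and the call was lost when any of 7 libraries was left out, with adjusted p up to 0.126; without irradiated III it held. Without irradiated I and II the log2 fold change was -0.17 (adjusted p = 0.309). Tgfbi (ENSMUSG00000035493) lies on the plus strand of chromosome 13 from 56609523 to 56639562.

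**Figure D2:**
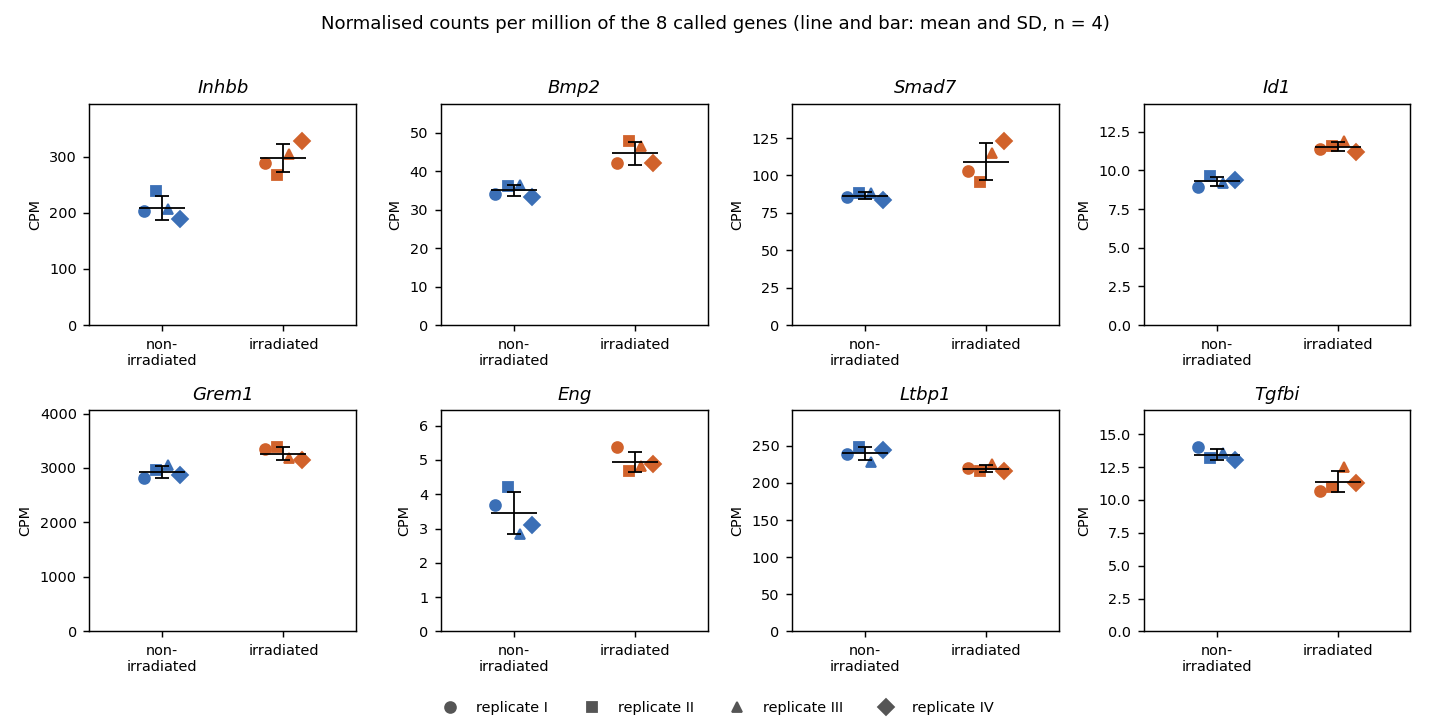
Normalised CPM of the 8 called genes in each library (y axis from 0; blue non-irradiated, orange irradiated; the marker shape is the replicate numeral), with the mean as a line and the SD as a bar over n = 4. The groups do not overlap for any of the 8 genes; Smad7 and Inhbb are highest in irradiated IV (123 and 328 CPM).

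**Figure D3:**
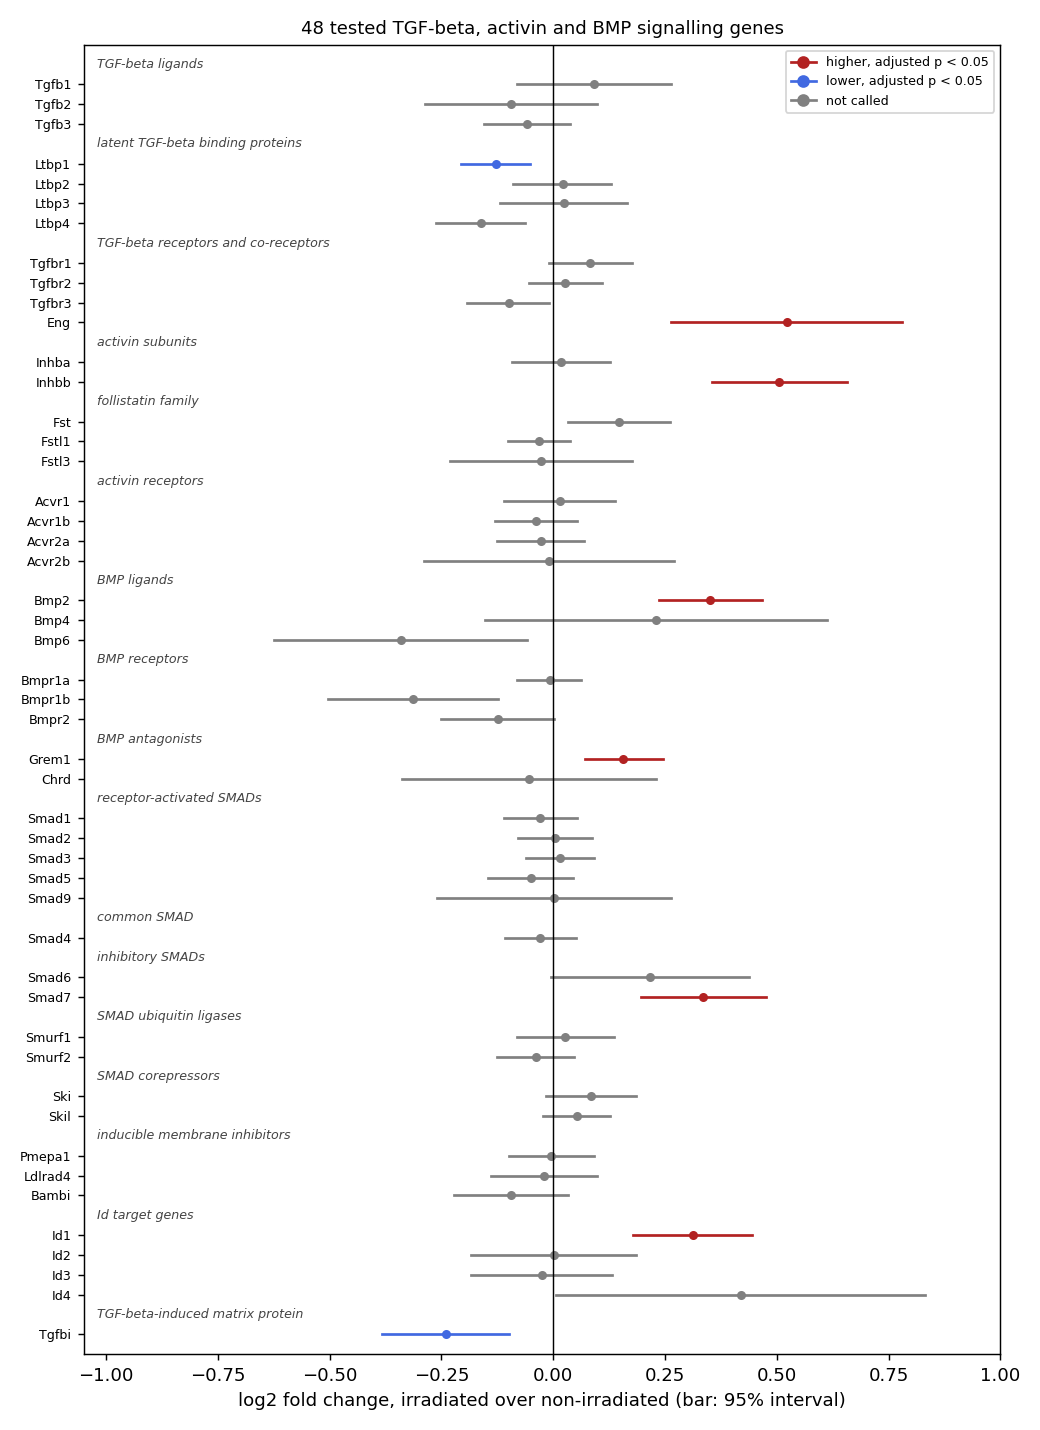
Log2 fold change of irradiated over non-irradiated libraries for the 48 tested genes by role, with its 95% interval as a bar; red genes were called higher, blue ones lower and grey ones were not called. Inhbb (0.51) and Eng (0.52) lie farthest to the right, and the receptor-activated SMADs lie between -0.05 and 0.02.

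Counts of called genes were also set against those of the most abundant uncalled gene of their role in the same library, which needs no normalisation. Tgfbi is alone in its role, so there were 7 pairs. The pairs follow from which genes were called, so the ratios are a description, with no test, and do not show that genes of a role differ. Id1 stood at 0.745 ± 0.0560 of Id3 in non-irradiated and at 0.937 ± 0.0443 in irradiated libraries (SD, n = 4 each). Bmp2 had 8.04 ± 1.25 and 13.0 ± 2.28 times the counts of Bmp6, whose own log2 fold change was -0.34. Eng went from 0.0158 ± 0.00239 to 0.0242 ± 0.00153 of Tgfbr3, whose own log2 fold change was -0.10. Ltbp1 over Ltbp2 was 2.07 ± 0.0769 and 1.87 ± 0.0597. The ratio of Smad7 to Smad6 was 20 ± 1.09 and 21.7 ± 2.13, with overlapping groups; both genes had positive log2 fold changes. Grem1 to Chrd also overlapped, where the low counts of Chrd limit the precision.

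**Figure D4:**
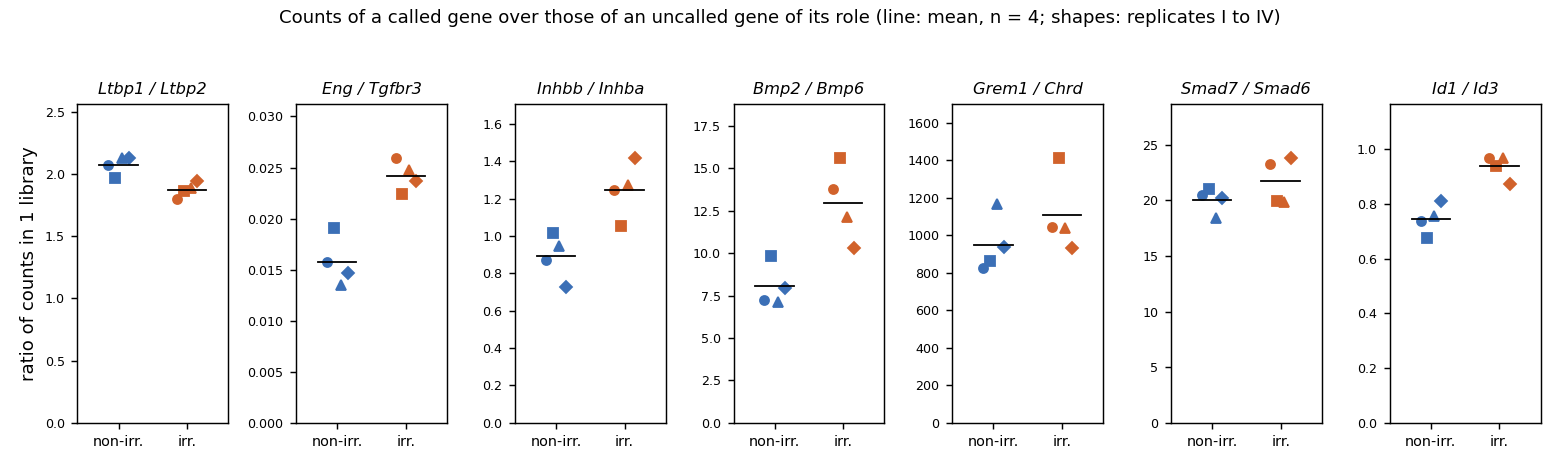
Ratio of the counts of a called gene to those of the most abundant uncalled gene of its role in the same library, for 7 pairs (y axes from 0; blue non-irradiated, orange irradiated; the shape is the replicate numeral and the line the mean of 4). The groups are separate for 5 pairs and overlap for Grem1 to Chrd and for Smad7 to Smad6.

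A wider list of 125 further genes of the superfamily was set beside the 51: other ligands, receptors and antagonists, factors of TGF-beta latency and activation, SMAD partners, the non-SMAD branch and frequent target genes. Of these, 103 were tested; 7 were higher and 10 lower (16.5% called, against 6.74% of all tested genes), with a median log2 fold change of 0.00. Among 31 tested target genes 2 were higher (6.45%, against 2.59% of all tested genes) and 5 lower (16.1%, against 4.15%), with a median of -0.10. The 2 higher ones were Cdkn1a, a cell cycle inhibitor that is also a p53 target (log2 fold change 0.34, adjusted p = 0.00135), and the AP-1 gene Junb (0.35, 0.0118). Those that fell were Zeb1, a transcription factor of mesenchymal cells (252 ± 5.94 to 221 ± 3.02 CPM, log2 fold change -0.18, adjusted p = 0.00352), Postn (periostin, -0.23, 0.00492), Myc, Lox and Acta2. Ccn2, a common TGF-beta readout, was not called (log2 fold change -0.22, adjusted p = 0.258).

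Of 13 tested genes of latency and activation, 2 were lower (15.4%, against 4.15% of all tested genes) and none higher (against 2.59%). Fbn2 (fibrillin 2, a microfibril protein that binds BMP complexes) had 16.6, 19.2, 15 and 16.7 and then 13.0, 11.6, 10.8 and 12.3 CPM, without overlap (log2 fold change -0.50, SE 0.08, adjusted p = 0.0022), and Thbs2 was the other. Among 23 SMAD partners and turnover genes 1 was called (4.35%, against 6.74% of all tested genes). That gene was Cav1 (caveolin 1, which takes part in receptor endocytosis). It fell from 283 ± 24.0 to 227 ± 7.82 CPM (a log2 fold change of -0.32, adjusted p = 0.00239). The non-SMAD branch had 2 higher genes of 12 tested (16.7%, against 2.59% of all tested genes), Map3k7 (the kinase TAK1) and Traf4. Of 10 further ligands 1 was called (10%, against 6.74% of all tested genes). Bmp8a rose from 2.83 ± 0.477 to 4.48 ± 0.921 CPM (a log2 fold change of 0.65, adjusted p = 0.0268), with irradiated II (3.15 CPM) inside the non-irradiated range. Bmp8a has a close paralog, Bmp8b, and reads could be split between them. Of 6 further receptors and co-receptors tested, 1 was called (16.7%, against 6.74% of all tested genes). Amhr2, the type II receptor of anti-Mullerian hormone, rose from 1.21 ± 0.224 to 1.91 ± 0.191 CPM (a log2 fold change of 0.66, adjusted p = 0.0251). It had only 413 counts in all 8 libraries together. The genes named here beyond the first 4 in each direction by adjusted p were chosen after their values were seen. Among 8 further antagonists and ligand-binding proteins tested, 2 were lower (25%, against 4.15% of all tested genes), Htra1 and Bgn. In the same class 1 was higher (12.5%, against 2.59%).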

How the data were processed

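The values are raw read counts per Ensembl gene, deposited by the authors with 1 file per library. The submitters' processing notes name bcl2fastq 2.20.0.422, STAR 2.5.2a, featureCounts 1.5.0-p1 and the build mm10; nothing given here states the gene annotation, whether strand was used, or how multi-mapping reads were treated. Symbols, coordinates and merged exon lengths came from GENCODE M21 (GRCm38), which named 55394 of 55573 identifiers; the other 179 held 0.0223% of counts.

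The test was run in edgeR 4.0.16 (R 4.3.3; TMM factors, filterByExpr with a minimum count of 10 and a minimum total of 15, quasi-likelihood test with group as the sole term, 8 libraries). Of all genes, 15259 were tested and 40314 were not. P-values were adjusted over all tested genes by the Benjamini-Hochberg method, and called means under 0.05. The SE is the log2 fold change divided by the root of F, and 95% intervals used the degrees of freedom of the test (13.4 at the median gene). CPM use the TMM-scaled library sizes, except for mitochondrial rRNA, which uses total counts. A gene without counts in 1 library allows up to 3 counts, for counting error only. The pipeline was tested on simulated data.

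No pair of libraries in a group agreed within counting noise (chi-square per degree of freedom from 5.14 to 27.8), so all 8 were kept. The members, role lists and tests were chosen with earlier results of these data known. Named genes are every called member, the most abundant member per kb of each role, a set of 24 core members whatever their values, and from the wider list up to 4 called genes in each direction by adjusted p; others were named after their values were seen. Count ratios between members were described without a test, since the pairs were chosen by the calls. Alternatives were DESeq2 1.42.0, limma-voom (limma 3.58.1), scaling by RLE or upper-quartile factors, 2 other filters, a threshold of 0.01, a replicate block, and leaving out single or paired libraries. A few genes are not reported here.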

Additional observations from a re-analysis of the deposited data

Results flagged for a closer look

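In 96 groups of 4 values (48 genes in 2 groups), 2 held a library far from the other 3, fewer than the 1 in 20 that chance gives. Smad9 was at 3.97 CPM in non-irradiated II, against 2.98 to 3.09 CPM in the other non-irradiated libraries. Smad6 was at 4.79 CPM in non-irradiated III, against 4.13 to 4.20 CPM in the others. Neither gene was called.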

How the results depend on the processing

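Each of the 48 tested genes was refitted under up to 18 alternatives. No called gene changed sign. Inhbb, Bmp2 and Smad7 were called in all 18, and Id1 in all but the fit without both irradiated I and II (adjusted p = 0.0557; up to 0.0298 when 1 library was left out). Grem1 and Eng lost the call in 6 and 5 alternatives, Tgfbi in 11 and Ltbp1 in 15. Of 40 uncalled genes, 36 were called in none and 4 in some: Ltbp4 in 5, Bmpr1b in 5, Bmpr2 in 1 and Ski in 1. The cause of these changes was not tested.

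Without both irradiated I and II, 3 members were higher and 0 lower, 295 of all genes were lower and 6 wider-list genes were lower. Lower members numbered 1 with RLE factors, limma-voom or no filter, and 4 with DESeq2. At a threshold of 0.01, members were 0 lower, all genes 140 higher and 296 lower, and wider-list genes 1 higher and 4 lower. Without a filter, all genes were 648 higher, and wider-list genes 12 higher and 18 lower. Leaving out 1 library at a time gave 4 to 6 higher and 0 to 2 lower members, 221 to 402 higher and 415 to 611 lower genes in all, and 2 to 8 higher wider-list genes. With irradiated IV left out, 221 of all genes were higher and 415 lower; 234 were higher with irradiated III left out and 257 with non-irradiated I left out. Lower members numbered 0 without non-irradiated IV or irradiated I, II or IV, and 1 without non-irradiated I or II or irradiated III. Higher wider-list genes numbered 2 without irradiated I and 3 without non-irradiated I, irradiated III or irradiated IV.

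Deviations from the group means correlated at -0.03 to 0.27 for same-numbered libraries and at -0.23 to 0.15 for libraries of different number. These ranges overlap, and they do not settle whether the replicate numerals pair the libraries. With the replicate as a block 6 members were higher and 3 lower (550 and 802 of all genes), with Ltbp1 lost (adjusted p = 0.0555) and Ltbp4 (0.0469) and Bmpr2 (0.0464) gained. Depth limits Bmp5, Bmp7 and Nog, which could not be tested, and leaves wide intervals for Id4, Bmp4, Acvr2b, Chrd and Smad9.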
